A study of Homo sapiens with 25 samples.

Results

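Transcripts of 54 genes that act in the passage from G1 to S phase and in DNA replication were followed in 3 human cell lines exposed to erlotinib, a small molecule that inhibits the kinase of the epidermal growth factor receptor (EGFR). The members form a list by function, which was chosen with earlier results of these data known. All 54 were found among the 19775 genes that the arrays measured with a probe set of a single gene symbol. All 54 also passed the filter on low values, a log2 value above 4 on at least 3 of the 25 arrays, along with 12643 genes in all. Erlotinib at 10 µM is in the label of every group, 0 min included, where the time counts from its addition. BT20 is a breast cancer line rich in EGFR, and it was sampled at 0 min on 4 arrays and at 30 min, 6 h and 24 h on 3 arrays each. MDA-MB-453, a breast cancer line with high ERBB2, and a line labelled only MCF were each sampled at 0 min and 24 h on 3 arrays each. All cells had been plated in medium with 10% serum and left to adhere for 24 h before the drug. No group was kept for the same time without erlotinib, so the drug and the added time in culture cannot be told apart. Whether replicates came from separate cultures is not in the labels, and p-values then speak only of the spread among these arrays, which may be technical. Each line is a single established culture, so a result holds for that line and not for a class of tumour.

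Replication starts in steps. In G1 the origin recognition complex (ORC), CDC6 and CDT1 load the MCM2 to MCM7 helicase on DNA, which is called licensing, and geminin (GMNN) blocks CDT1 once S phase begins. At the G1/S boundary the CDC7 kinase with its partner DBF4 and the cyclin-dependent kinases turn the loaded helicase on, with MCM10, CDC45 and the GINS complex joining it, and the fork then runs with the DNA polymerases alpha, delta and epsilon, the sliding clamp PCNA and its loader RFC. Growth factor receptors such as EGFR drive this step through D-type cyclins, which lift the block that the retinoblastoma protein sets on E2F transcription factors. Many licensing, fork and cyclin E genes are textbook E2F targets. The 54 genes are described here in 4 groups, which are licensing (15 genes), helicase activation (8), the fork with its clamp, polymerases, checkpoint and chromatin assembly proteins (24), and E2F and cyclin E with close regulators (7).

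Promoters are shown because the E2F word is what many of these genes share outside the expression values. RefSeq promoters of GRCh38.p14 were matched to 48 of the 54 members by symbol, each running from 250 bases before to 50 bases after the start of the gene. The exact words TTTCCCGC, TTTCGCGC, TTTGCCGC and TTTGGCGC were searched on both strands. At least 1 of them stood in 24 of the 48 member promoters (50%), against 3.33% of the 27305 promoters in the table and 5.3% of the 10315 promoters of genes tested on the arrays. In 17 of the 48 (35.4%) a word began within 60 bases before the start of the gene, against 1.25% for the genes tested. The stretches below are the 160 bases that lie directly before the start, written 5′ to 3′ on the strand of the gene, with E2F words in capitals. MCM6 lies at chr2:135876444-135876603 on the minus strand, and its 4 matches form 2 overlapping pairs. PCNA (chr20:5126623-5126782, minus strand), CDC25A (chr3:48188418-48188577, minus strand) and E2F2 (chr1:23531234-23531393, minus strand) hold 1 word each, and E2F1 (chr20:33686386-33686545, minus strand) holds 2.
MCM6: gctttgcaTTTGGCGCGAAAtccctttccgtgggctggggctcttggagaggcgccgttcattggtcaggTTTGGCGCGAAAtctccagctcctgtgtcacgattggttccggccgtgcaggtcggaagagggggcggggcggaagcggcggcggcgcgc
PCNA: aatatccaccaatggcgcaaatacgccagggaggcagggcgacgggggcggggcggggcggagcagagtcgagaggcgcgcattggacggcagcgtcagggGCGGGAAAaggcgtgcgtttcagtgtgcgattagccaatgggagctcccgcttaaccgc
CDC25A: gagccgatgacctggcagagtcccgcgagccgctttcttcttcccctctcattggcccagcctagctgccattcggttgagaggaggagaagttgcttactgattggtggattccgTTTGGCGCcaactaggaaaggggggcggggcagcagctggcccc
E2F1: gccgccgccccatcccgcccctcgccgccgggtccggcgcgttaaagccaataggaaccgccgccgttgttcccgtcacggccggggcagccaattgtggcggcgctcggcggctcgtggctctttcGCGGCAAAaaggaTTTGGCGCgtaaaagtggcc
E2F2: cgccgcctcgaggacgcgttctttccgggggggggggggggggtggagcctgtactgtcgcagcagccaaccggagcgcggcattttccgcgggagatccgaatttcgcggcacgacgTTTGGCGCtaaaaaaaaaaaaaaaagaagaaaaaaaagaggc

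MCM10, whose transcript had the smallest p of all members at 24 h in BT20, and TIMELESS, which moved the other way, hold none of the 4 words in this stretch. They lie at chr10:13161398-13161557 on the plus strand and at chr12:56449427-56449586 on the minus strand.
MCM10: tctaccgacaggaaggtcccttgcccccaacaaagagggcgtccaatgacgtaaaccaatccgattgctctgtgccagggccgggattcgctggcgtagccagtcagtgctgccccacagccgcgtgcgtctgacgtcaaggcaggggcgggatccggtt
TIMELESS: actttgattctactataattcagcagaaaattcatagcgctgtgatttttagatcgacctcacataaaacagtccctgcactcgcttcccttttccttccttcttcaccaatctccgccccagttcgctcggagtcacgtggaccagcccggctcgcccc

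By group, the E2F word was present in 7 of 13 licensing promoters, 3 of 7 for helicase activation, 9 of 22 for the fork and 5 of 6 for E2F and cyclin E. Among members whose transcript was called lower at 24 h in BT20, 14 of 25 promoters (56%) held it, and among the other members 10 of 23 (43.5%) did, and this difference was not tested. The CCAAT word on either strand stood in 27 of 48 member promoters (56.2%), against 36.9% of the genes tested. The GC box GGGCGG stood in 35 (72.9%, against 69.2%). The word TTTGAA, the core of the cell cycle homology region of many mitotic genes, stood in 1 of 48 (2.08%, against 9.75%). A match is a string of letters in the reference and does not show binding in these cells.

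Most markers were highest in the line they were listed for, and some were not. EGFR had a mean log2 value of 12.18 over the BT20 arrays, while MDA-MB-453 had 3.55 and MCF 3.03. KRT5, a basal keratin, had 12.18, 2.62 and 1.83 in the same order. KRT14, another basal keratin, was below 4 in BT20 as well, and ID4, also listed for BT20, was higher in MCF (9.74) than in BT20 (8.47). ERBB2 was highest in MDA-MB-453 at 11.07, while AGR2, listed for the same line, was as high in MCF (13.19) as there (13.17). ESR1, TFF1 and PGR were highest in MCF, the first at 12.57. Several markers were also well above 4 in a further line, with ESR1 at 8.83 and ERBB2 at 8.46 in BT20 and TFF1 at 8.59 in MDA-MB-453. GATA3, KRT18 and FOXA1, the last listed for MDA-MB-453, were high in all 3 lines. Of 6 markers of fibroblasts and blood cells, PTPRC, CD3E, HBB and DCN had means below 4 in every line, COL1A1 lay between 8.41 and 11.15 in all 3, and COL3A1 reached 5.22 in MCF. The median residual SD of a tested gene was 0.316 in MCF, against 0.194 in BT20 and 0.169 in MDA-MB-453. Part 1 (BT20 and MDA-MB-453) and Part 2 (MCF) of the labels differ in the scale of their arrays, so marker levels set across them are approximate, and levels of the 54 members were compared only within a Part.

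One control array decides several results in BT20 and is described before them. Replicate 4 of BT20 at 0 min correlated with the 6 h arrays over the 54 members at 0.989 to 0.994, and with the other 0 min arrays at 0.887 to 0.913. Over all genes tested the same correlations were 0.990 to 0.992 and 0.971 to 0.975. Replicate 4 lay nearer to the 6 h mean than to the mean of replicates 1 to 3 for 35 of the 54 members. The same count over all genes tested was not made. The labels give no processing batch for single arrays, and what replicate 4 and the 6 h arrays share was not tested. BT20 results are therefore given with all 4 controls and, under the name batch term, from a fit with an extra term for replicate 4 and the 6 h arrays. That fit takes replicate 4 as the only reference for 6 h, and replicates 1 to 3 as the reference for 30 min and 24 h. Replicate 4 is then a single array with no spread of its own. The spread pooled over the other arrays is assumed to hold for it, and the test at 6 h has less power.

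After 24 h of erlotinib, transcripts of most of these genes were lower in BT20. Of the 54 members, 28 were called lower and 2 higher, where called means an adjusted p under 0.05 from limma with Benjamini-Hochberg adjustment over all genes tested. Among all genes tested 13.9% were called lower and 18.9% higher. The change was below 0 for 50 of the 54, and its median was -0.48 on the log2 scale, against 0.03 for all genes tested. Called falls ran from -0.39 for GMNN to -1.83 for CLSPN, a checkpoint mediator. Every 24 h array lay below all 4 controls for 39 members, which was so for 19.6% of all genes tested. With the batch term 30 members were called lower and 1 higher, against 15.4% and 21.3% of all genes. The median over members of the 24 h mean minus replicate 4 was -0.43, and minus the mean of replicates 1 to 3 it was -0.55. In bulk RNA a lower share of cells in S phase and less RNA per cell cannot be told apart.

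**Figure D1:**
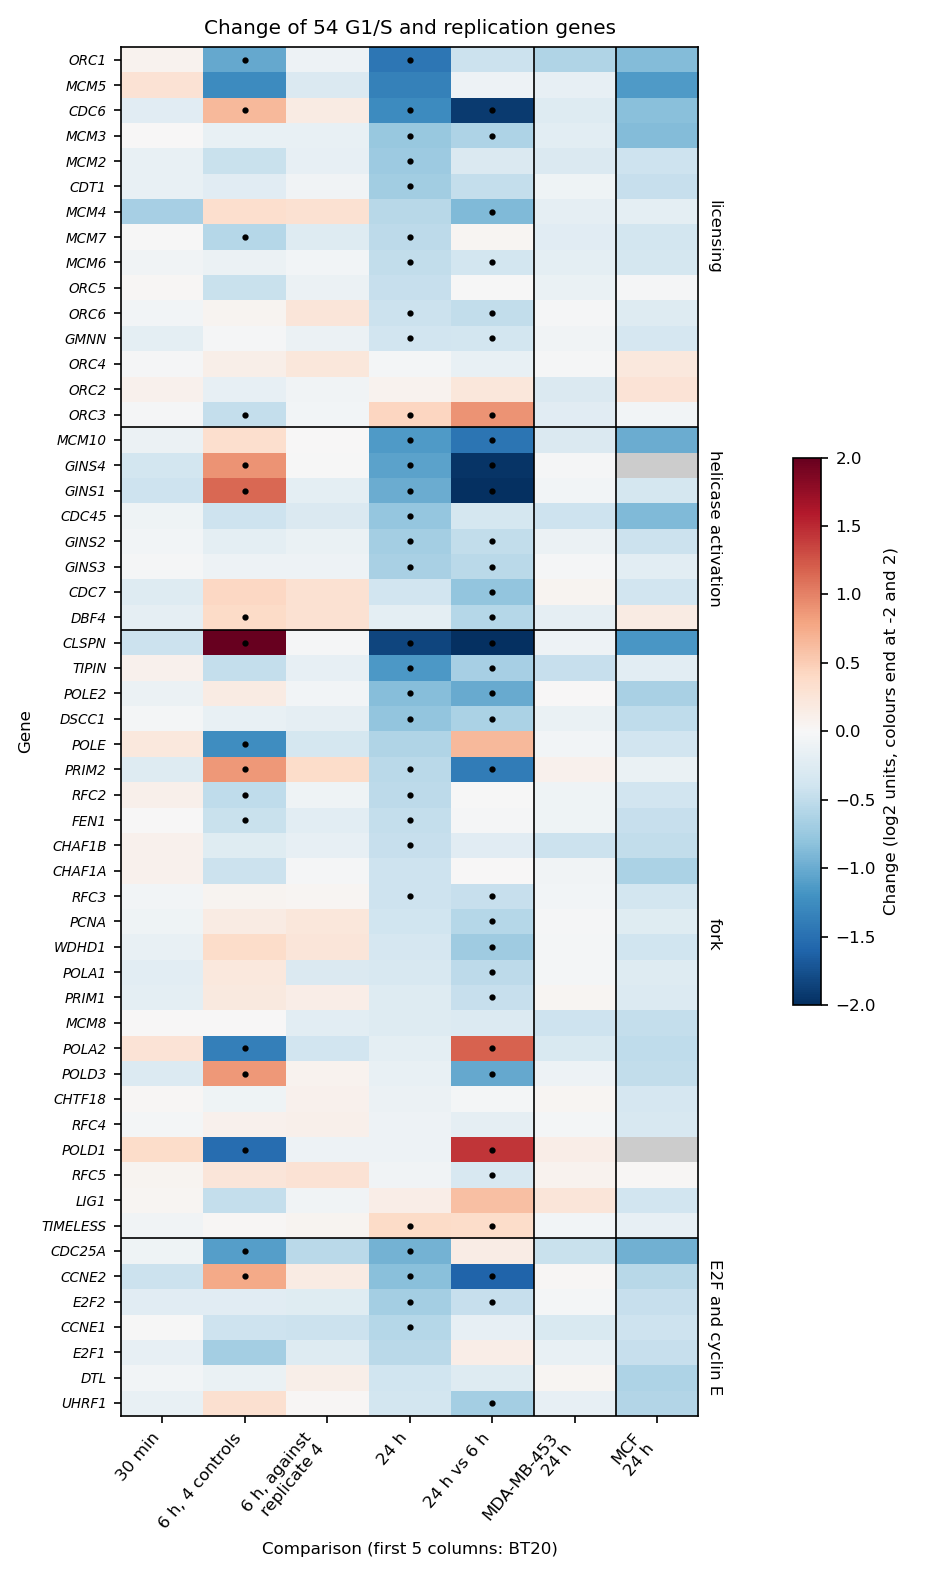
Colour shows the change in log2 units of each of the 54 genes (rows, sorted within the 4 groups by the BT20 24 h change) in 7 comparisons (columns), a dot marks an adjusted p under 0.05 and grey marks a gene not tested. The 24 h column of BT20 is blue for 50 of 54 genes, and the 6 h column holds 17 dots with 4 controls and none against replicate 4.

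In the licensing group 9 of 15 members were called lower and 1 higher. The change was below 0 for 13 of the 15, with a median of -0.52. CDC6, the ATPase that recruits the MCM helicase to ORC, had log2 values of 9.69, 9.54, 9.86 and 10.34 on the 4 control arrays and 8.62, 8.45 and 8.73 at 24 h. The groups did not overlap, and replicate 4 was the highest control. The change was -1.26 ± 0.16 (SE), a 2.39-fold lower level, with an adjusted p of 3.63e-06 (limma). ORC1, the ORC subunit whose level cycles with the cell cycle, stood at 7.80, 7.58, 7.40 and 6.36 in the controls and at 5.73, 5.87 and 5.90 at 24 h. Here replicate 4 was the lowest control by about 1 log2 unit, yet all 24 h arrays were lower still. The change of ORC1 was -1.45 ± 0.26 (adjusted p = 0.000176), and -1.76 ± 0.20 with the batch term.

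The called MCM helicase subunits had smaller changes than CDC6 and ORC1. MCM3 fell by 0.75 ± 0.14 (adjusted p = 0.000279), MCM2 by 0.73 ± 0.19 (0.00561) and MCM6 by 0.49 ± 0.10 (0.000512), each with no overlap between the arrays. MCM7 fell by 0.52 ± 0.17 (adjusted p = 0.0208). The MCM5 change was close to that of ORC1, at -1.35, but its SE was 0.72 and it was not called (adjusted p = 0.169). Its control arrays spread from 7.97 to 9.54, and its 3 arrays at 24 h, at 7.47, 7.55 and 7.72, were all lower. Replicate 4 was the lowest control, and against replicates 1 to 3 alone the MCM5 change was -1.67. Another probe set of MCM5 gave -0.98 ± 0.34 (adjusted p = 0.0304). MCM4 changed by -0.56 ± 0.27 and was not called either (adjusted p = 0.127), although another of its probe sets gave -0.97 ± 0.25 and an adjusted p of 0.00471. CDT1, the loader that geminin inhibits, fell by 0.70 ± 0.24 (0.0313) and GMNN itself fell by 0.39 ± 0.09 (0.00168), so the loader and its inhibitor both declined.

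The other ORC subunits changed less than ORC1, and not all in one direction. ORC6, the smallest subunit, fell by 0.44 ± 0.10 (adjusted p = 0.00184). ORC2 and ORC4 had changes of 0.08 ± 0.22 and -0.03, and ORC5 of -0.46 ± 0.21, none of them called with 4 controls. Against replicates 1 to 3 alone the ORC5 change was -0.58, and another probe set of ORC5 gave -0.84 ± 0.17 (0.000515) with 4 controls. ORC3 was higher at 24 h, at 9.47, 9.28 and 9.50 against 9.17, 9.13, 9.09 and 8.58 in the controls. Its change of 0.42 ± 0.14 was called with all 4 controls (adjusted p = 0.024), and with the batch term it was 0.29 ± 0.12 and was not called (adjusted p = 0.0720).

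Helicase activation was the group with the lowest median, -0.73. Of its 8 members 6 were called lower, and all 8 had a change below 0. MCM10, which helps the assembled helicase to open DNA, read 9.21, 9.49, 9.36 and 9.79 in the controls and 8.14, 8.45 and 8.40 at 24 h. The lowest control lay above the highest 24 h array by more than the spread within either group. The change was -1.14 ± 0.14, or 2.2-fold lower (adjusted p = 1.23e-06), and the other probe sets of MCM10 gave -1.75 ± 0.15 and -1.40 ± 0.17. GINS3 was among the tightest measurements, with 11.85, 11.82, 11.70 and 11.79 in the controls and 11.01, 11.21 and 11.20 at 24 h. It fell by 0.65 ± 0.08 (adjusted p = 2.78e-06), and replicate 4 lay within its other controls.

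All 4 GINS subunits, which form 1 complex, fell together: GINS2 by 0.69 ± 0.17 (adjusted p = 0.00284), GINS1 by 0.99 ± 0.29 (0.0118) and GINS4 by 1.07 ± 0.32 (0.014). The sizes for GINS1 and GINS4 depended on replicate 4. For GINS1 it read 11.49 where the other controls read 9.52 to 9.98. With the batch term GINS1 changed by -0.54 ± 0.13 (adjusted p = 0.00304). For GINS4 replicate 4 read 7.99 where the other controls read 6.68 to 6.87, and against those the change was -0.76. Another probe set of GINS4, with a mean of 4.14, gave -0.48 ± 0.23 with 4 controls and was not called (adjusted p = 0.126). CDC45, which joins MCM and GINS in the active helicase, fell by 0.77 ± 0.21 (0.0062). The kinase that triggers the step was not called: CDC7 changed by -0.38 ± 0.17 (adjusted p = 0.0935) and its activator DBF4 by -0.19 ± 0.15 (0.361).

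**Figure D2:**
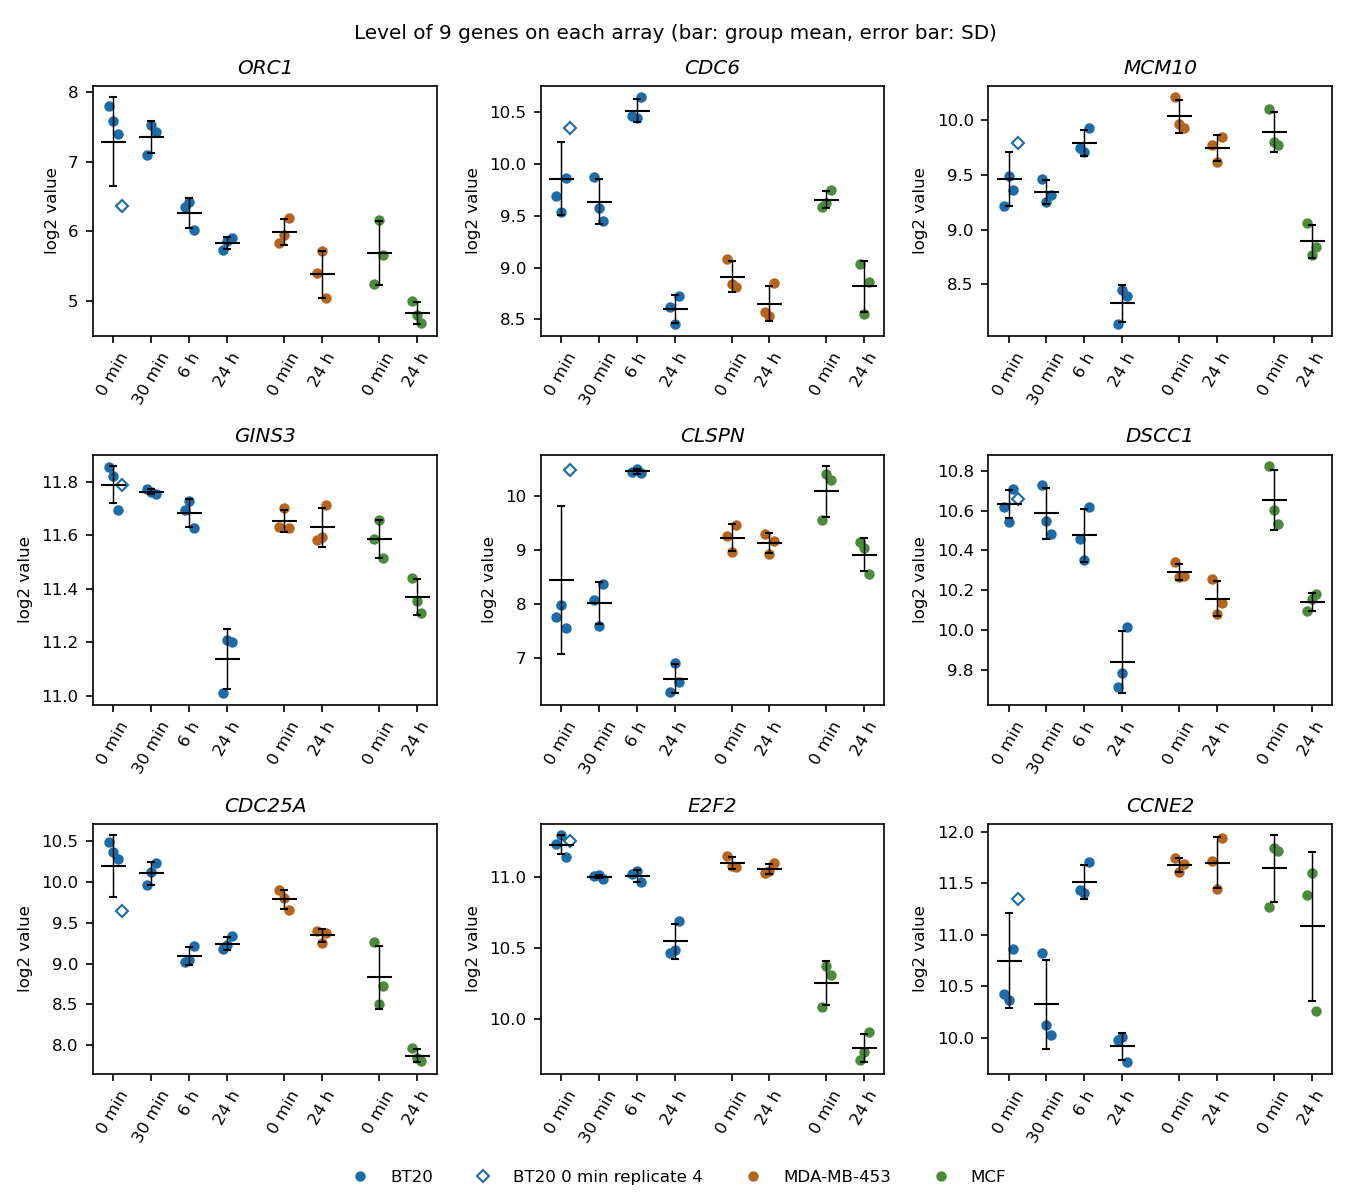
Each panel plots the log2 value of 1 gene on every array by line and time, with bars at the group mean and error bars of 1 SD; the open diamond is replicate 4 of BT20 at 0 min. All 9 genes sit lowest in BT20 at 24 h among the BT20 arrays except CDC25A, whose 6 h mean is lower still, and the diamond of CLSPN lies at the 6 h values.

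Fork genes were called lower less often than the other groups, with 9 of 24 lower and 1 higher. Their change was below 0 for 22 of 24, with a median of -0.37. DSCC1, a subunit of an alternative clamp loader, read 10.62, 10.54, 10.71 and 10.66 in the controls and 9.72, 9.79 and 10.02 at 24 h, a fall of 0.79 ± 0.10 (adjusted p = 3.39e-06). POLE2, the second subunit of polymerase epsilon, read 10.00, 10.01, 9.73 and 10.20 and then 9.03, 9.08 and 9.29, a fall of 0.85 ± 0.14 (adjusted p = 4.66e-05). Neither gene showed overlap between controls and 24 h. The flap nuclease FEN1 fell by 0.47 ± 0.10 (0.000956) and the clamp loader subunit RFC3 by 0.41 ± 0.09 (0.000942).

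The clamp itself missed the threshold. PCNA read 12.07, 12.05, 12.16 and 12.03 in the controls and 11.76, 11.65 and 11.61 at 24 h, so the groups did not overlap. Its change was -0.40 ± 0.16 with an adjusted p of 0.0662 in the fit to all 25 arrays, and the adjusted p was 0.00492 when only BT20 arrays entered the fit. With 4 controls the polymerase subunits POLD1, POLD3, POLA1, POLA2, PRIM1 and POLE were not called, with changes from -0.60 (POLE) to -0.10 (POLD1). Another probe set of POLA2 gave -0.71 ± 0.19 (adjusted p = 0.00781). Against replicates 1 to 3 alone the changes were -0.57 (POLD1), 0.12 (POLD3), -0.16 (POLA1), -0.52 (POLA2), -0.24 (PRIM1) and -0.90 (POLE). Replicate 4 minus the mean of replicates 1 to 3 was -1.89, 1.06, 0.65, -1.31, 0.09 and -1.20 in the same order. The sizes thus depended on replicate 4, least for PRIM1, and the change of POLD3 reversed its sign. DNA ligase LIG1 changed by 0.13 ± 0.23 and was not called.

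Among claspin and the TIMELESS-TIPIN pair, which hold the fork together when it stalls, claspin and TIPIN fell and TIMELESS rose. CLSPN read 7.76, 7.97 and 7.56 on controls 1 to 3, 10.48 on replicate 4, and 6.37, 6.90 and 6.56 at 24 h. All 24 h arrays were below all controls, and the change was -1.83 ± 0.45 (adjusted p = 0.00329) with 4 controls and -1.15 ± 0.23 (0.000443) with the batch term. TIPIN fell by 1.15 ± 0.23 (0.000476), or 2.21-fold. TIMELESS, the partner of TIPIN in 1 protein complex, rose from 10.70, 10.41, 10.53 and 10.49 to 10.87, 10.93 and 10.94, a change of 0.38 ± 0.09 (adjusted p = 0.00274). A second probe set of TIMELESS, with a mean below 4, gave 0.19 ± 0.29 and was not called, and with the mean of both probe sets the gene was not called.

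In the E2F and cyclin E group 4 of 7 members were called lower and all 7 had a change below 0, with a median of -0.58. E2F2, an activating E2F, read 11.23, 11.29, 11.14 and 11.25 in the controls and 10.46, 10.48 and 10.69 at 24 h. It fell by 0.68 ± 0.09 (adjusted p = 4.53e-06). CDC25A, the phosphatase that activates the cyclin E kinase, read 10.49, 10.37, 10.28 and 9.64 and then 9.17, 9.22 and 9.34, a fall of 0.95 ± 0.17 (adjusted p = 0.000196). CCNE1 fell by 0.58 ± 0.18 (0.0151). CCNE2 fell by 0.83 ± 0.28 with 4 controls (0.0242), and with the batch term its change was -0.63 ± 0.27 and was not called (adjusted p = 0.0773); another probe set of CCNE2 gave -2.29 ± 0.36 (3.93e-05). E2F1 changed by -0.55 ± 0.28, which was not called (adjusted p = 0.163), and its controls were split between 9.84 and 10.01 on replicates 1 and 2 and 9.10 and 9.08 on replicates 3 and 4. Against replicates 1 to 3 alone the E2F1 change was -0.69. DTL, which directs the breakdown of CDT1 in S phase, and UHRF1, which keeps up DNA methylation, changed by -0.39 ± 0.17 and -0.36 and were not called, although a second probe set of DTL gave -1.24 ± 0.21 (0.000111).

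**Figure D3:**
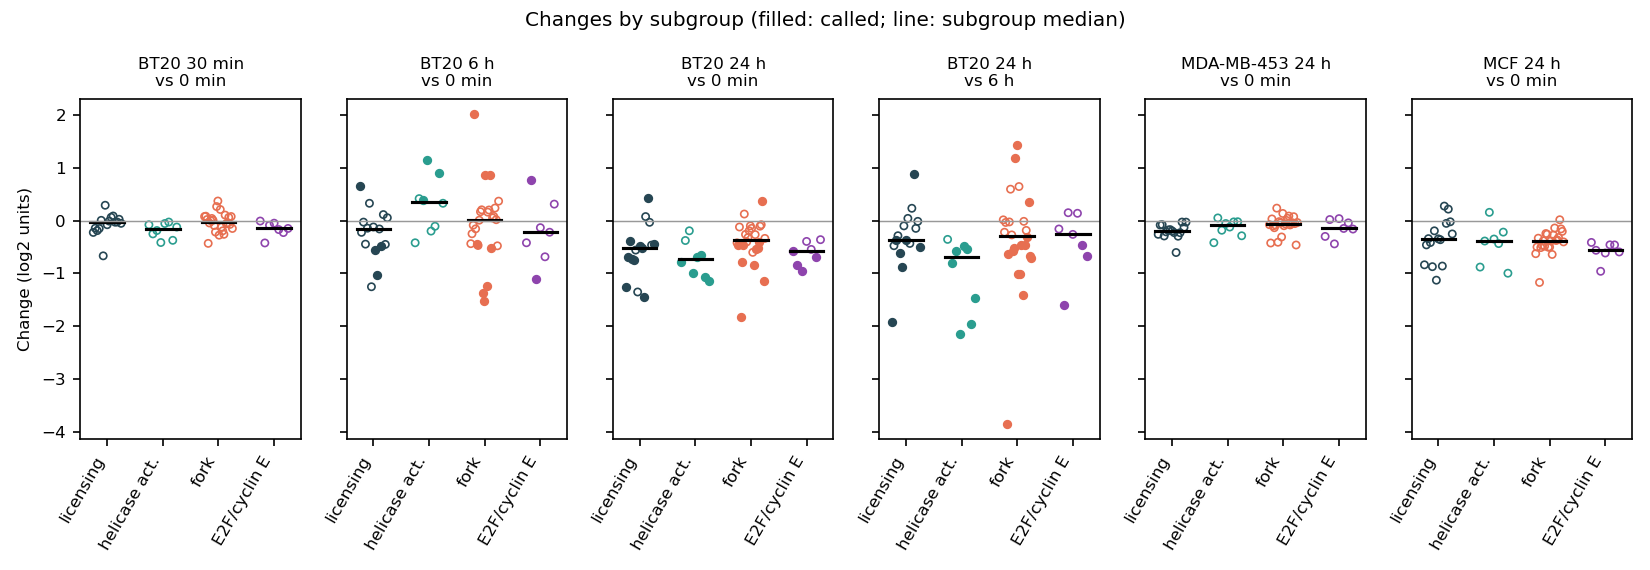
Each point is the change of 1 gene in log2 units in 6 comparisons, split by the 4 groups, filled where the adjusted p was under 0.05, with a line at the group median. At 24 h in BT20 the medians are -0.52, -0.73, -0.37 and -0.58 from left to right, and the points of MDA-MB-453 lie close to 0.

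Nothing was called at 30 min. In BT20 0 of 54 members passed in either direction, against 0.0158% of all genes lower and 0% higher, and limma gave an unadjusted p under 0.05 for 3 members (E2F2, MCM4 and GMNN, all lower) and 337 genes. E2F2 read 11.01, 11.01 and 10.99 at 30 min, below its 4 controls, a change of -0.23 ± 0.09 with an adjusted p of 1.00. MCM4 read 11.792, 11.524 and 10.015 at 30 min, against 11.632 to 11.89 in the controls, so its fall came mostly from 1 array. The median over members was -0.06.

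At 6 h the result rested on the choice of control, for these members as for all genes. With 4 controls 9 members were called lower and 8 higher, against 16.6% and 21.6% of all genes. The share of lower calls was thus near that of all genes, and that of higher calls below it. The member median was -0.11. With replicate 4 as the reference, a single array that makes the test weaker, none was called, against 1.21% and 1.1% of all genes, and limma gave an unadjusted p under 0.05 for 1 member, CDC25A. For 16 of the 17 called members replicate 4 lay nearer to the 6 h mean than to the other controls. This was not counted over all genes called at 6 h, so it is not shown to be particular to the members. CLSPN showed it most plainly: the 6 h arrays read 10.44, 10.51 and 10.42, replicate 4 read 10.48 and the other controls 7.56 to 7.97. Its change was 2.01 ± 0.45 (adjusted p = 0.00187) with 4 controls and -0.02 ± 0.32 against replicate 4.

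**Figure D4:**
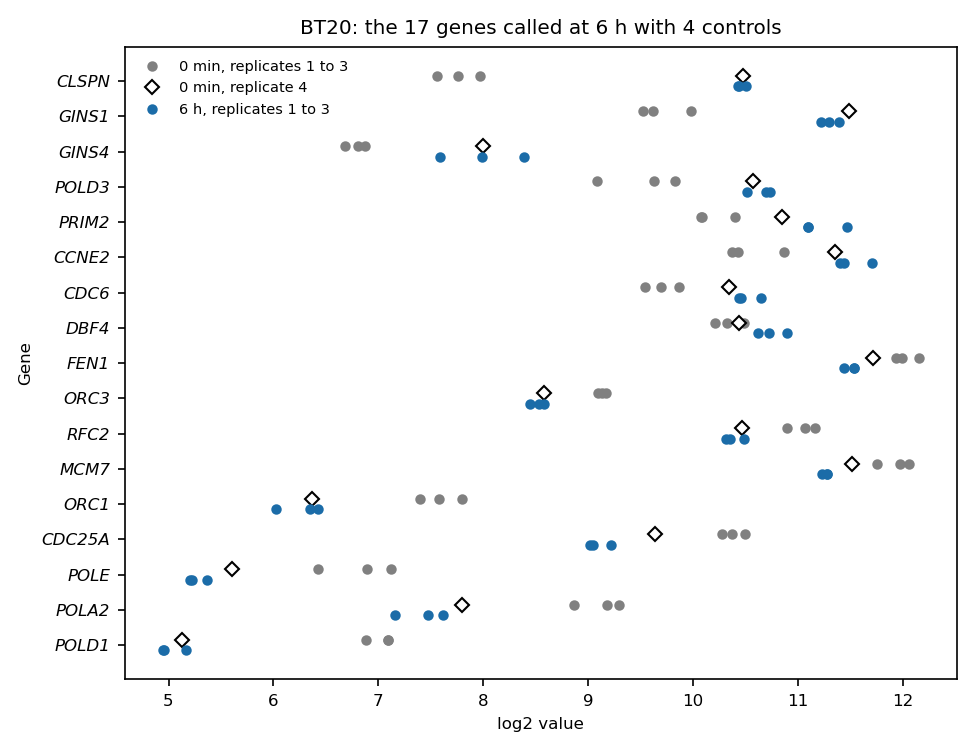
The 17 genes called at 6 h with 4 controls are shown by log2 value in BT20, with controls 1 to 3 as grey points, replicate 4 as open diamonds and the 6 h arrays as blue points. The diamond lies nearer to the 6 h mean than to the mean of the grey points in 16 of the 17 genes.

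The same held for other members with large values at 6 h. GINS1 changed by 1.15 ± 0.29 (adjusted p = 0.00445) and by -0.19 ± 0.19 against replicate 4. POLD1, the catalytic subunit of polymerase delta, read 4.94, 4.96 and 5.17 at 6 h and 5.13 on replicate 4, where the other controls read 6.89 to 7.10. Its change was -1.53 ± 0.31 (0.000879) with 4 controls and -0.11 ± 0.20 against replicate 4. POLA2, of the priming polymerase, had -1.37 ± 0.28 (0.000925) and -0.39 ± 0.31. PRIM2, the large primase subunit, had 0.87 ± 0.18 (0.000882) and 0.37 ± 0.22, and CDC6 had 0.65 ± 0.16 (0.00397) and 0.17 ± 0.20.

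For CDC25A, FEN1 and DBF4 the change against replicate 4 was also smaller and not called. It kept its sign, as it did for POLD1, POLA2, PRIM2 and CDC6. CDC25A read 9.02, 9.05 and 9.22 at 6 h, below all 4 controls, replicate 4 included. Its change was -1.10 ± 0.17 (adjusted p = 0.000111) with 4 controls and -0.54 ± 0.20 (0.258) against replicate 4. FEN1 had -0.44 ± 0.10 (0.00195) and -0.21 ± 0.13 (0.677). DBF4 was the called member for which replicate 4 lay nearer to the other controls, and it had 0.38 ± 0.15 (0.0449) and 0.31 ± 0.22 (0.783). The remaining always named genes had changes of -0.22 (CDT1), -0.03 (GMNN), -0.44 (MCM2), 0.33 (MCM10), 0.17 (PCNA), -0.42 (CCNE1), -0.68 (E2F1) and -0.22 (E2F2), none of them called, while CCNE2 had 0.76 ± 0.28 (0.0343) and 0.17 ± 0.38 against replicate 4. The other probe sets of MCM10 gave -0.64 ± 0.15 and -0.15 ± 0.17 at 6 h, so its direction at this time was not settled.

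From 6 h to 24 h, 28 members fell and 4 rose, against 20.3% and 21.4% of all genes. The median change was -0.40. With the batch term 6 members fell, against 4.38% of all genes, and they were ORC1, ORC6, CDC6, GINS3, MCM10 and DSCC1. CDC6 went from 10.46, 10.44 and 10.64 to 8.62, 8.45 and 8.73, a change of -1.91 ± 0.17 (adjusted p = 7.51e-08), and of -1.26 ± 0.25 (0.0016) with the batch term. MCM10 changed by -1.46 ± 0.15 (2e-07), and by -1.03 ± 0.22 (0.00366). CLSPN changed by -3.84 ± 0.48 (3.86e-06) and by -1.13 ± 0.39 (0.0734), and PRIM2 by -1.40 ± 0.19 (8.3e-06) and -0.74 ± 0.27 (0.0917), so both lost their call with the batch term.

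The 4 members called higher from 6 h to 24 h were ORC3 (0.89 ± 0.15, adjusted p = 9e-05), POLD1 (1.43 ± 0.33, 0.00172), POLA2 (1.18 ± 0.30, 0.00351) and TIMELESS (0.36 ± 0.10, 0.00579). None of them was called with the batch term, where POLD1 changed by -0.47 ± 0.24 and POLA2 by -0.13 ± 0.38. The comparisons of 24 h with 0 min and with 6 h share the 24 h arrays.

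In MDA-MB-453, in which EGFR was near the floor of the arrays, no member was called at 24 h. Among all genes tested 1.55% were called lower and 4.22% higher. The member median was -0.08, 44 of 54 changes were below 0, and limma gave an unadjusted p under 0.05 for 4 members, which were MCM8, CHAF1B, CDC25A and ORC1, all lower, and for 2057 of the 12643 genes, a larger share. Every 24 h array lay below every control for 13 members (24.1% of them), against 12.5% of all genes, and the reverse held for no member, against 17.6% of all genes.

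ORC1 in MDA-MB-453 read 5.83, 5.95 and 6.19 before and 5.40, 5.72 and 5.04 after, a change of -0.60 ± 0.28 (adjusted p = 0.279). CDC25A read 9.90, 9.80 and 9.66 and then 9.41, 9.26 and 9.38, a change of -0.44 ± 0.18 (0.209). MCM10 read 10.20, 9.96 and 9.93 and then 9.77, 9.62 and 9.84, a change of -0.29 ± 0.15 (0.355). These 3 genes were lower without overlap but short of the threshold. CDC6, at -0.26 ± 0.17, E2F2, at -0.04 ± 0.10, and PCNA, at -0.02 ± 0.18, overlapped between the times. All 15 licensing genes had a change below 0, with a median of -0.20, and the medians of the other groups were -0.09 for helicase activation, -0.06 for the fork and -0.15 for E2F and cyclin E.

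In MCF most members were lower at 24 h in size, but its arrays varied more and none was called. The fit to the 6 MCF arrays (4 residual degrees of freedom) tested 52 members (not GINS4 and POLD1) among 11021 genes, and 0.00907% of these genes were called lower and 0% higher. The member median was -0.39 against -0.01 for all genes, 48 of 52 changes were below 0, and limma gave an unadjusted p under 0.05 for 12 members and 620 genes. Every 24 h array lay below every control for 22 of the 52 members (42.3%), against 6.18% of all genes. In the 25-array fit, which lends MCF the smaller spread of the other lines, 10 members were called lower, against 2.02% of all genes. They were CDC6, MCM3, CDC45, MCM10, POLE2, RFC3, FEN1, DSCC1, CDC25A and E2F2.

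MCM10 in MCF went from 10.10, 9.79 and 9.77 to 9.06, 8.77 and 8.84, a change of -0.996 ± 0.178 (adjusted p = 0.214 in the MCF fit). CDC6 went from 9.59, 9.63 and 9.75 to 9.03, 8.56 and 8.86, a change of -0.84 ± 0.18 (0.38). CDC25A went from 9.26, 8.50 and 8.73 to 7.96, 7.84 and 7.81, a change of -0.96 ± 0.23 (0.417). E2F2 went from 10.08, 10.37 and 10.31 to 9.71, 9.77 and 9.91, a change of -0.46 ± 0.16 (0.751). In all 4 genes the later arrays lay below the earlier ones with no overlap, and the same was so for CLSPN, with a change of -1.17 ± 0.30 (0.471). Other members spread widely: MCM5 ranged from 6.12 to 9.63 over the 3 controls. The group medians were -0.34, -0.39, -0.38 and -0.56 in the order licensing, helicase activation, fork, and E2F and cyclin E.

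The members set apart in the other lines can be read against the calls in BT20. Of the 22 without overlap in MCF, 18 (81.8%) were called lower in BT20, and these are 66.7% of the 27 members called lower in BT20 that were tested in MCF. The 4 others were MCM8, POLA2, RFC4 and TIMELESS. Of the 13 without overlap in MDA-MB-453, 10 (76.9%) were called lower in BT20, which is 35.7% of the 28. ORC1, MCM6, MCM10, DSCC1, CHAF1B and CDC25A were called lower in BT20 and were lower without overlap in both other lines. Among all members, 27 of the 52 tested in MCF and 28 of the 54 tested in MDA-MB-453 were called lower in BT20. These are the shares to set beside 81.8% and 76.9%. The same shares over all genes were not computed. The 3 lines share no control array, and no test of these overlaps was made.

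**Figure D5:**
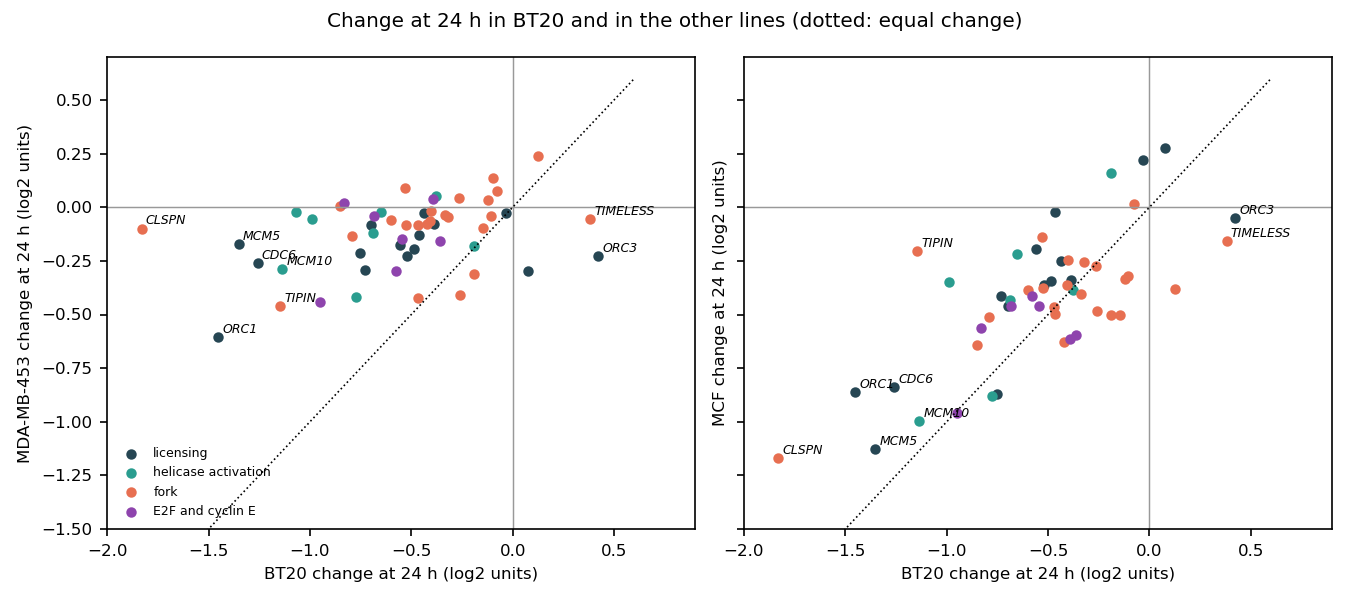
The 24 h change in log2 units in MDA-MB-453 (left) and MCF (right) is plotted against that in BT20, 1 point per gene coloured by group, with a dotted line where both are equal. In the left panel most points lie near 0 on the vertical axis whatever their BT20 change, and in the right panel they extend further below 0.

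The difference between lines was tested gene by gene. The 24 h change was lower in BT20 than in MDA-MB-453 for 6 members and higher for 2, against 7.12% and 7.69% of all genes, and the difference was below 0 for 49 of 54 members with a median of -0.38. GINS3 changed by -0.65 in BT20 and by -0.02 in MDA-MB-453, a difference of -0.63 ± 0.12 (adjusted p = 0.000896). E2F2 differed by -0.64 ± 0.13 (0.00162), DSCC1 by -0.66 ± 0.15 (0.00376) and POLE2 by -0.85 ± 0.20 (0.00447). CDC6 differed by -0.999 ± 0.239 (0.00564) and MCM10 by -0.85 ± 0.20 (0.00475). ORC3 (0.65 ± 0.20, adjusted p = 0.0350) and TIMELESS (0.44 ± 0.13, 0.0314) differed the other way. With the batch term 12 members differed downwards and 2 upwards, against 9.04% and 10.6% of all genes. For ORC1 the changes were -1.45 and -0.60, and the difference of -0.85 ± 0.38 was not called with 4 controls (adjusted p = 0.170) but was -1.16 ± 0.29 (0.00635) with the batch term.

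Between BT20 and MCF fewer members differed. GINS3 fell more in BT20, by a difference of -0.43 ± 0.12 (adjusted p = 0.0173), and TIMELESS, lower in MCF at -0.16 and higher in BT20 at 0.38, differed by 0.54 ± 0.13 (0.00815). That is 1 member in each direction, against 5.54% and 9.87% of all genes. With the batch term 3 members differed downwards, against 7.91% of all genes. The median difference was -0.15. Among large fallers, CDC6 differed by -0.42 ± 0.24 (0.289) and MCM10 by -0.14, neither of them called, which does not show equal responses. This test uses the spread pooled over lines, which is smaller than that of MCF alone.

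Other genes of the pathway in BT20 at 24 h moved unevenly by role. Upstream, among 26 tested genes of RB and E2F control, 9 were lower and 1 higher, where 13.9% and 18.9% of all genes were. Cyclin D1 (CCND1) fell by 1.14 ± 0.12 (adjusted p = 3.48e-07) and its kinase partner CDK6 by 1.11 ± 0.13 (1.01e-06). RBL1, the retinoblastoma relative p107, fell by 0.66 ± 0.16 (0.0023) and RBL2, the relative p130 found in resting cells, rose by 0.79 ± 0.12 (3.92e-05). The difference from MDA-MB-453 was -0.86 ± 0.18 for CCND1 (0.00215), -0.97 ± 0.19 for CDK6 (0.00104) and -0.76 ± 0.23 for RBL1 (0.0263). These 3 were the only genes of the 26 called, against 7.12% lower and 7.69% higher of all genes, and RBL2 was not called. From MCF 2 genes of this list differed downwards and 2 upwards, against 5.54% and 9.87% of all genes.

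Among 26 further replication genes 4 were lower and 2 higher, a share of lower calls near that of all genes (13.9%) and of higher calls below it (18.9%). Their median was -0.16, where that of the members was -0.48. SLBP, which handles histone messages in S phase, fell by 0.57 ± 0.10 (0.000101), POLE3, a small subunit of polymerase epsilon, by 0.62 ± 0.11 (0.000153) and MCMBP, an MCM binding protein, by 1.13 ± 0.28 (0.00329). POLD4, a small subunit of polymerase delta, rose by 1.32 ± 0.25 (0.000343). Of 7 tested genes of deoxynucleotide supply, RRM2, of ribonucleotide reductase, fell by 0.32 ± 0.10 (0.014) and was the only call, also near the share of all genes.

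No mitotic gene was called lower in BT20 at 24 h. Of 20 tested, limma called 0 lower and 5 higher, gave an unadjusted p under 0.05 for 6, and the median was 0.18. Of all 12643 genes 13.9% were called lower and 18.9% higher, and 5169 had an unadjusted p under 0.05, so the count of higher calls is near the background. CDC25C, the phosphatase that starts mitosis, rose by 1.40 ± 0.24 (adjusted p = 0.000121), KIF20A by 0.88 ± 0.27 (0.0141), HMMR by 0.66 ± 0.16 (0.00333) and CCNB2 by 0.45 ± 0.10 (0.00197). In MDA-MB-453 the only call in these 4 further lists was MKI67, a proliferation marker, at -0.60 ± 0.16 (0.0277), and in MCF limma called none, with an unadjusted p under 0.05 for 1 to 3 genes of each list.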

How the data were processed

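Gene expression was measured on 25 Affymetrix arrays of total RNA in 8 groups. The authors deposited log2 values for each probe set, made with GCRMA 2.20.0 in R 2.11.1 per the submitters' processing notes, and these were used as deposited. GCRMA models background from the sequence of the probes and normalizes arrays together, which makes the sizes of changes at low levels inexact. Of 54613 probe sets 41091 carried 1 symbol in the platform annotation, 1801 several and 11721 none. A gene was the single-symbol probe set with the highest mean over the 25 arrays. The members have 49 further probe sets, of which 39 passed the filter, and 37 of these had the same sign of change at 24 h in BT20 as the one used. At that time 6 members that were not called had a called further probe set (DTL, MCM4, MCM5, ORC5, POLA2 and RFC5), and 4 called members had one that was not called (GINS4, MCM7, RFC3 and TIMELESS).

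A model with 8 group means was fitted in limma 3.58.1 (R 4.3.3) with 17 residual degrees of freedom, and moderated p-values were adjusted by Benjamini-Hochberg over all genes tested. MCF was fitted alone, with 4. The error after ± is the SE of the fit. The batch term, other filters, probe set summaries, normalizations, array weights and left-out arrays were alternatives, and the code was tested on simulated data. Precision is limited by the number of arrays. The upper quartile of values was 7.65 to 7.81 on Part 1 arrays and 7.27 to 7.32 on Part 2 arrays.

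The members, the further lists and the alternatives were chosen with earlier results of these data known. Values are named for up to 5 called members per group with the smallest p at 24 h in BT20, up to 4 per direction elsewhere, and always for CDC6, CDT1, GMNN, MCM2, MCM10, PCNA, CCNE1, CCNE2, E2F1, E2F2 and CDC25A. The others were named after their values were seen. Promoters were matched by symbol, with none for MCM4, MCM5, GINS4, POLD3, DSCC1 and CCNE2.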

Additional observations from a re-analysis of the deposited data

Results flagged for a closer look

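In the 4 BT20 arrays at 0 min, 6 of the 54 genes had an array set apart by more than the critical value of Dixon's ratio of gap to range, a check that also marks some groups by chance. Replicate 4 was that array for ORC3 (ratio 0.873, log2 value 8.58 against a nearest control at 9.09), GINS4 (0.854, 7.99 against 6.87), POLD1 (0.893, 5.13 against 6.89) and CLSPN (0.859, 10.48 against 7.97). Replicate 3 was that array for ORC2 (0.867, 11.79 against 11.54) and MCM6 (0.839, 12.27 against 12.10).

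The 24 h change differed between BT20 and MDA-MB-453 in 8 genes by the test of the difference itself in limma: CDC6 (-0.999, adjusted p = 0.00564), DSCC1 (-0.66, 0.00376), E2F2 (-0.64, 0.00162), GINS3 (-0.63, 0.000896), MCM10 (-0.85, 0.00475), POLE2 (-0.85, 0.00447), ORC3 (0.65, 0.0350) and TIMELESS (0.44, 0.0314). It differed between BT20 and MCF for GINS3 (-0.43, 0.0173) and TIMELESS (0.54, 0.00815). The cause of these differences was not tested.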

How the results depend on the processing

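The count of called members in BT20 at 24 h stayed within 1.5 times the main 30 under every alternative run, and 20 of the 30 members kept their call in all 17 settings. CCNE2 and PRIM2 kept it in 11, ORC3 and MCM7 in 12, CDT1 and RFC2 in 13, CCNE1 in 15, and GINS1, GINS4 and TIMELESS in 16. At 6 h the main count of 17 became 42 with array weights, 27 with the replicate block, 30 with BT20 fitted alone and 0 with the batch term. For 24 h against 6 h the 32 calls became 6 with the batch term. In MDA-MB-453 the count of 0 became 3 with the mean of probe sets and 7 with array weights. It became 1 with the replicate block and 2 with the line fitted alone. In MCF the count of 0 became 11 with array weights and 10 in the 25-array fit. Over all 12643 genes array weights called 1285 lower and 2049 higher in MDA-MB-453, against 196 and 534 in the main fit. In MCF they called 416 lower and 398 higher of 11021. The 8 differences between BT20 and MDA-MB-453 became 38 with array weights, 13 with the replicate block, and 14 with the batch term or with both lines fitted alone. The 2 differences between BT20 and MCF became 15 with array weights and 4 with the replicate block or the batch term. Calls over all genes shifted too, and the member counts are to be read beside them. With array weights, 4684 genes were called lower and 4568 higher at 6 h, of 12643 tested, against 2101 and 2726 in the main fit. The replicate block gave 3092 and 3321 at 6 h, and BT20 fitted alone 3236 and 3249 of 11517. For BT20 minus MDA-MB-453 array weights gave 2633 and 2738, against 900 and 972. For BT20 minus MCF they gave 2407 and 3614, against 701 and 1248. Reversed values were, at 6 h, CLSPN -0.020 and GINS1 -0.19 with the batch term, GMNN 0.033 with array weights, 0.0037 with the replicate block and 0.0037 without replicate 4 of BT20 at 0 min (the other left-out arrays kept the sign, and the range was -0.071 to 0.0037), and MCM10 -0.16 with the mean of probe sets, and, for 24 h against 6 h, POLD1 -0.47 and POLA2 -0.13 with the batch term. The cause was not tested. Leaving out 1 array at a time gave 0 to 0 calls at 30 min, 13 to 25 at 6 h, 23 to 31 at 24 h, 26 to 30 for 24 h against 6 h, 0 to 0 in MDA-MB-453 and MCF, 6 to 14 for BT20 minus MDA-MB-453 and 1 to 4 for BT20 minus MCF. The highest values of the last 2, 14 and 4, came without replicate 4 of BT20 at 0 min, and the lowest of the last, 1, without replicate 1 of BT20 or of MCF at 24 h. Deviations of same-numbered arrays from their group means had mixed correlations (-0.64 to 0.80). They do not settle whether the numbers pair the arrays. The replicate block left 0 calls at 30 min and in MCF, 31 at 24 h and 33 for 24 h against 6 h.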
